A study of Mus musculus with 12 samples.

Results

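The growth hormone, STAT5 and IGF1 axis of the mouse liver was described with 10 genes out of the 55487 genes of the deposited table. These were Ghr, Stat5a, Stat5b, Igf1, Igfals, Socs2, Cish, Bcl6, Cux2 and Hsd3b5. They were taken by gene symbol, all 10 had counts, and all 10 were among the 15197 genes that passed the filter on low counts. The genes were chosen by their textbook roles and selected on the fold changes of these same comparisons, which were known, so their differences between groups are a description here and none of them is an independent test.

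Livers came from healthy male Kunming mice, bought at 7 to 8 weeks of age and acclimated for 7 days. These mice then received their treatment once a day by oral gavage for 7 days. The NC group received normal saline, the MTP group triptolide at 300 μg/kg, and the MTP+CR group triptolide at 300 μg/kg together with crocin at 100 mg/kg. Triptolide, from the thunder god vine, is a diterpenoid known to inhibit transcription. Crocin is a water-soluble saffron carotenoid. Each group had 4 livers with 1 library each, there was no crocin-only group among the libraries, and the mice carried no transgene or induced disease.

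Growth hormone reaches the liver from the pituitary and binds its receptor, GHR, on hepatocytes. The kinase JAK2, bound to the receptor, then phosphorylates STAT5A and STAT5B, which enter the nucleus and turn on target genes. Among these targets are Igf1, the main source of circulating insulin-like growth factor 1, and Igfals, whose product keeps IGF1 in the blood in a complex with IGF-binding proteins. Socs2 and Cish are also STAT5 targets, and their products damp the signal. In mice the hormone is released in pulses in males and more evenly in females, and liver genes such as Hsd3b5 are expressed mainly in males for that reason. BCL6 and CUX2 are repressors that act on sex-biased liver genes, CUX2 being expressed mainly in female liver.

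STAT5 dimers bind DNA at TTCNNNGAA, which reads the same on both strands. This motif was looked for in the 300 bases from 250 before to 50 after each RefSeq transcription start (assembly GRCm38.p6), and 8.298% of 32851 such windows held it, as did 9.554% of 27025 genes in at least 1 window. Of the 10 axis genes, 9 had a window, with 16 windows among them, and Cish, Bcl6 and Igfals held the motif in 5 of these. The runs with the motif are shown because they are the DNA words that the axis is known to work through, and capitals mark the motif.
Cish, chr9:107296655-107296682, plus strand, with 2 motifs, the first beginning at the start site: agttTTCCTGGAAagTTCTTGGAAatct
Bcl6, chr16:23981433-23981461, minus strand, 168 bases before the start: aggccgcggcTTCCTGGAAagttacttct
Bcl6, chr16:23981387-23981415, minus strand, 122 bases before the start: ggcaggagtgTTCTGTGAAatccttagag
Bcl6, chr16:23981353-23981381, minus strand, 88 bases before the start: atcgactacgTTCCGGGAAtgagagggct
Bcl6, chr16:23988952-23988980, minus strand, 118 bases before another start: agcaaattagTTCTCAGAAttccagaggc
Igfals, chr17:24877598-24877626, plus strand, 236 bases before a start: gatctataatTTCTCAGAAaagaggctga
Igfals, chr17:24878163-24878191, plus strand, 58 bases before another start: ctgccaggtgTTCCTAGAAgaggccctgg
The word TTCCTGGAA was present at Cish and at Bcl6, and TTCTCAGAA at Bcl6 and at Igfals. A match is a description of the letters and not a bound site. The windows of Ghr, Stat5a, Stat5b, Igf1, Cux2 and Hsd3b5 did not hold these letters.

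The libraries held 15509226 to 18430566 counts. TMM factors, which scale for composition, were 0.836 to 0.952 for NC, 1.07 to 1.52 for MTP and 0.823 to 0.989 for MTP+CR, and values are given as CPM (counts per 1000000 counts of the library) after this scaling. MTP 4 and MTP+CR 4 stood apart from the other livers of their groups, with median rank correlations of 0.924 and 0.917 to them. The summed level of 8 hepatocyte marker genes was 91991 to 163720 CPM in the NC livers, 36714 to 60277 in the MTP livers and 77198 to 111620 in the MTP+CR livers. Of these, 1 (Alb) was called lower in MTP against NC and 4 were called higher in MTP+CR against MTP. The summed level of 9 endothelial markers was 538 to 659, 467 to 622 and 182 to 254 CPM in the same order, and 6 of them were called lower in MTP+CR against either other group. For 10 markers of neutrophils and granulocyte precursors the sums were 16.8 to 145, 24.0 to 543 and 12.3 to 63.3 CPM, and Elane and Mpo were called higher in MTP against NC and lower in MTP+CR against MTP. The 7 Kupffer cell markers summed to 673 to 1057, 454 to 692 and 382 to 792 CPM, with 7 of 7 fold changes below 0 in MTP against NC (median −0.68, smallest adjusted p = 0.0828, edgeR quasi-likelihood). In MTP+CR against NC, 6 of 7 were below 0 and 1 (Adgre1) was called lower (−1.61, adjusted p = 0.0108, edgeR quasi-likelihood). The 6 stellate cell markers summed to 290 to 355, 273 to 437 and 149 to 265 CPM, and 1 (Dcn) was called lower in MTP+CR against MTP. Over all genes tested, 2.61% were called higher and 2.78% lower in MTP against NC, and 5.94% and 6.51% in MTP+CR against MTP. In MTP+CR against NC these shares were 0.329% and 1.00%. In whole liver, fewer cells of a type and less RNA per cell cannot be told apart, and the part of cell composition in the results below was not tested beyond the values given.

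Hsd3b5 was the member that set the groups apart. Its product is a 3-ketosteroid reductase of male mouse liver, and the gene lies on chromosome 3 from 98618634 to 98630252 (minus strand, mm10). Its level was 107, 62.9, 267 and 30.6 CPM in NC livers 1 to 4. In MTP livers 1 to 4 it was 0.369, 0.223, 0 and 0.969 CPM, from 9, 4, 0 and 18 counts, and the 0 of MTP 3 allows a level of up to 0.129 CPM, counting error only. In MTP+CR livers 1 to 4 it was 117, 36.1, 135 and 4.39 CPM. Every MTP liver lay below every liver of the other groups, whereas the NC and MTP+CR livers overlapped and MTP+CR 4 was the lowest of these.

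Hsd3b5 fell by 8.24 on the log2 scale with triptolide (standard error 1.23, adjusted p = 0.00552, edgeR quasi-likelihood) and rose by 7.57 with crocin added (standard error 1.20, adjusted p = 0.00714). Between MTP+CR and NC the log2 fold change was −0.67 (standard error 0.86). Both calls held in all 22 alternative analyses, with fold changes (log2) from −9.62 to −7.44 and from 6.84 to 9.17. Genes of this family are close in sequence, and the counting could divide shared reads between them, since 21.2% of the 50-base stretches of Hsd3b5 occur in other genes, mainly Hsd3b4, Gm10681 and Gm4450. Hsd3b4 held 5 to 18 counts and Gm10681 0 to 2 counts in the NC livers, and both held 0 counts in all MTP livers. Gm4450 held 0 to 1 counts in the livers of each of these groups.

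The related 3β-hydroxysteroid dehydrogenase genes gave a comparison within the same libraries. Of 6 other Hsd3b genes listed, 3 passed the filter. Hsd3b2 and Hsd3b3 were called lower in MTP than in NC, where 2.78% of all genes tested were called lower. Hsd3b2 was 54.7 to 208 CPM in NC livers and 0.820 to 19.6 in MTP livers, with a log2 difference of −3.85 (standard error 0.82, adjusted p = 0.0199, edgeR quasi-likelihood). Hsd3b3 was 81.9 to 202 and 7.96 to 37.8 CPM, with −2.82 (standard error 0.59, adjusted p = 0.0182). With crocin added, Hsd3b2 rose by 3.33 (standard error 0.81, adjusted p = 0.0279), and Hsd3b3 at 1.63 (adjusted p = 0.0701) and Hsd3b7 at 1.44 (adjusted p = 0.0669) did not pass. Hsd3b5 made up 18.3 to 44.0% of the counts of Hsd3b2, Hsd3b3 and Hsd3b5 together in NC livers, 0 to 4.04% in MTP livers and 8.59 to 43.7% in MTP+CR livers. The share of Hsd3b5 among the 3 genes was thus lower in every MTP liver than in any other liver. The Hsd3b2 and Hsd3b3 calls in MTP against NC were lost without NC 1, NC 3 or MTP 3 (−3.71 to −3.53 and −2.68 to −2.56), and that of Hsd3b3 also without MTP 1. The rise of Hsd3b2 was lost without MTP 1, MTP 3, MTP+CR 1 or MTP+CR 3 (2.94 to 3.18).

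Igf1, the hormone gene of the axis (chromosome 10, 87858265 to 87937042, plus strand), was among the more abundant members. Its level was 1179, 784, 946 and 689 CPM in NC livers 1 to 4, 149, 482, 116 and 497 CPM in MTP livers and 1046, 772, 973 and 394 CPM in MTP+CR livers. All MTP livers lay below all NC livers, and MTP 1 and 3 were far below MTP 2 and 4. Among the MTP+CR livers, MTP+CR 4 was below the highest MTP livers, so that these groups overlapped. The log2 fold change was −1.53 (standard error 0.48, adjusted p = 0.0757, edgeR quasi-likelihood) for MTP against NC and 1.36 (standard error 0.47, adjusted p = 0.0702) for MTP+CR against MTP, neither of which passed. Both passed with DESeq2 (adjusted p = 0.0127 and 0.0201), with limma-voom and quality weights (−2.05 and 2.01, adjusted p = 0.00682 and 0.0113) without MTP 4 (−1.86 and 1.68, adjusted p = 0.0334 and 0.0293) and without both MTP 4 and MTP+CR 4 (−1.86 and 1.91, adjusted p = 0.023 and 0.0203). Over the 22 alternatives the adjusted p ran from 0.00682 to 0.19 and from 0.0113 to 0.174.

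Ghr encodes the receptor (chromosome 15, 3317760 to 3583492, minus strand). It was at 607, 372, 715 and 637 CPM in NC livers, 162, 395, 174 and 329 CPM in MTP livers and 398, 731, 442 and 362 CPM in MTP+CR livers. MTP 1 and 3 were again the lowest livers of all, and MTP 2 lay above NC 2. The log2 fold changes were −1.14 for MTP against NC (standard error 0.35, adjusted p = 0.0766, edgeR quasi-likelihood), 0.87 for MTP+CR against MTP (standard error 0.35, adjusted p = 0.105) and −0.27 for MTP+CR against NC. The first passed with DESeq2 (adjusted p = 0.0183), with limma-voom (−1.36, adjusted p = 0.0123) and with MTP 4 and MTP+CR 4 both left out (−1.27, adjusted p = 0.046), and the second with limma-voom (1.04, adjusted p = 0.0439).

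**Figure D1:**
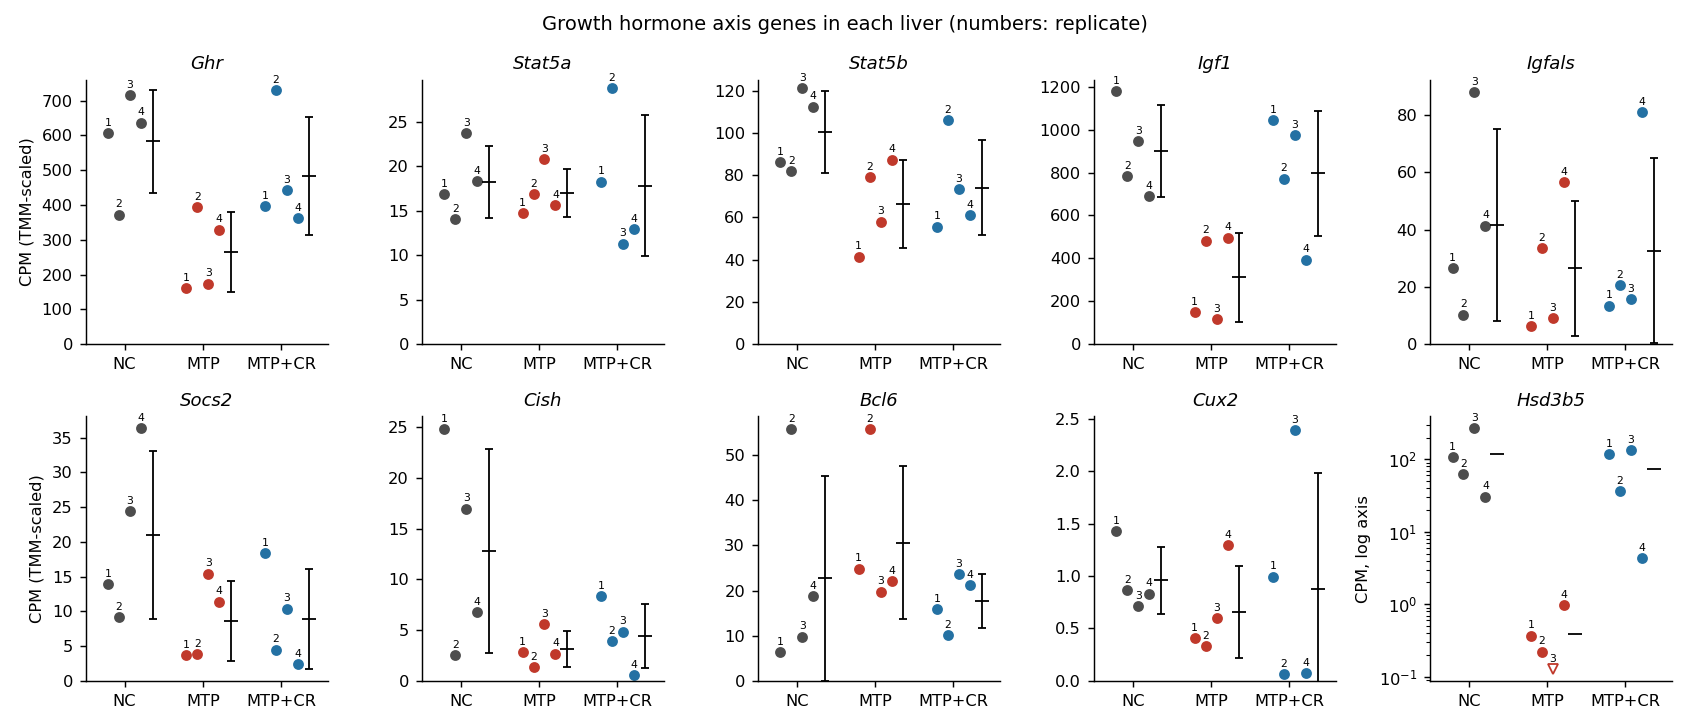
CPM of the 10 axis genes in each liver, 1 panel per gene, with groups on the x axis, replicate numbers beside the points, and black marks for the mean with its SD (n = 4), cut at 0. Hsd3b5 is on a log axis with means only, and the open triangle marks the limit of 0.129 CPM for the count of 0 in MTP 3, so that the MTP livers stand at or below 0.969 CPM and the other livers at or above 4.39.

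STAT5A and STAT5B are the transcription factors of the pathway, encoded side by side on chromosome 11 (Stat5a, 100859351 to 100885169, plus strand, and Stat5b, 100780731 to 100850724, minus strand). Stat5b was at 86.1, 82.0, 121 and 112 CPM in NC livers, 41.5, 79.2, 58.0 and 87.3 in MTP livers and 55.6, 106, 73.5 and 61.0 in MTP+CR livers, with overlap between all groups. Stat5a was 18.2 ± 4.06 CPM in NC, 17.0 ± 2.68 in MTP and 17.8 ± 7.88 in MTP+CR (mean ± SD, n = 4), and its log2 fold changes of −0.10, 0.07 and −0.03 were below their standard errors. For Stat5b the log2 fold change was −0.59 for MTP against NC (standard error 0.28, adjusted p = 0.22, edgeR quasi-likelihood) and 0.16 for MTP+CR against MTP. Per gene length (FPKM), Stat5b exceeded Stat5a in every liver, by 8.67 to 10.4 times in NC, 4.74 to 9.49 times in MTP and 5.19 to 11.1 times in MTP+CR. About 11% of the 50-base stretches of Stat5b are shared with Stat5a, so a part of their reads may not be told apart.

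The feedback inhibitors had a pattern of their own. Socs2 (chromosome 10, 95385362 to 95417180, minus strand) was at 13.9, 9.22, 24.4 and 36.3 CPM in NC livers, 3.69, 3.90, 15.4 and 11.4 in MTP livers and 18.4, 4.502, 10.4 and 2.37 in MTP+CR livers. Cish (chromosome 9, 107296026 to 107302784, plus strand) was at 24.8, 2.54, 17.0 and 6.74 CPM in NC livers, 2.87, 1.34, 5.61 and 2.69 in MTP livers and 8.31, 3.91, 4.85 and 0.575 in MTP+CR livers. In both genes the livers of all groups overlapped, and the MTP+CR livers reached a lower minimum and a higher maximum than the MTP livers. The log2 fold change of Socs2 was −1.28 for MTP (standard error 0.63) and −1.23 for MTP+CR (standard error 0.63), each against NC, and 0.05 for MTP+CR against MTP. Cish had −2.02 (standard error 0.73), −1.53 (standard error 0.72) and 0.49 (standard error 0.72) in the same order. None passed in edgeR's quasi-likelihood test (adjusted p = 0.117 to 0.962), and Cish passed for MTP against NC with DESeq2 alone (adjusted p = 0.0318). Exons of Cish overlap the antisense genes Gm17041 and Gm17040 over 7.46% and 4.07% of their length, and these held 0 and 0 to 10 counts per liver.

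Igfals encodes the acid-labile subunit that carries IGF1 in blood (chromosome 17, 24865997 to 24882010, plus strand). It spread widely within each group, from 10.3 to 87.9 CPM in NC livers, from 6.40 to 56.6 in MTP livers and from 13.4 to 81.0 in MTP+CR livers. In the MTP+CR group livers 1 to 3 were at 13.4, 20.5 and 15.7 CPM and liver 4 at 81.0 CPM. The log2 fold changes were −0.65 (standard error 0.77) for MTP against NC and 0.31 for MTP+CR against MTP, and the second turned to −0.67 without MTP+CR 4. Within each group the level varied more than the group means differed.

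The repressors Bcl6 and Cux2 differed in abundance. Bcl6 (chromosome 16, 23965052 to 23988852, minus strand) was at 6.45, 55.8, 9.80 and 18.8 CPM in NC livers, 24.9, 55.8, 19.8 and 22.1 in MTP livers and 15.8, 10.2, 23.7 and 21.3 in MTP+CR livers. NC 2 and MTP 2 were the high livers, and the remaining livers of all groups lay between 6.45 and 24.9 CPM. The log2 fold change of 0.43 for MTP against NC (standard error 0.57) was 1.39 without NC 2 and −0.04 without MTP 2. Cux2 (chromosome 5, 121856366 to 122050102, minus strand) was near the lower limit of the data, at 0.710 to 1.43 CPM in NC livers, 0.334 to 1.29 in MTP livers and 0.0652 to 2.39 in MTP+CR livers, and its groups overlapped.

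Taken by mean level per gene length, the order of the members in NC livers was Hsd3b5 (66.2 FPKM), Igf1 (62.0), Ghr (43.5), Stat5b (15.4), Igfals (4.32), Bcl6 (2.76), Stat5a (1.64), Socs2 (1.38), Cish (1.07) and Cux2 (0.0633). The first place of Hsd3b5 rested on NC 3 (144 against 60.1 FPKM for Igf1). In NC 1, 2 and 4 Igf1 was higher (85.2, 54.2 and 48.3 FPKM against 66.0, 36.9 and 18.2 for Hsd3b5). Neighbours in this order overlapped between livers except Ghr with Stat5b, Stat5b with Igfals, and Cish with Cux2. In MTP livers Igf1 (27.8 FPKM) and Ghr (26.5) led and Hsd3b5 stood ninth at 0.299 FPKM, and in MTP+CR livers Hsd3b5 came after Igf1, at 41.6 against 53.9 FPKM. In MTP+CR 3 alone of that group Hsd3b5 was above Igf1 (75.3 against 63.9 FPKM). The gene lengths behind the FPKM are the authors' and can differ from those of GENCODE, from 1549 bases in both for Hsd3b5 to 8464 against 3167 for Igfals. For Igf1 they were 13144 against 9904 bases, so its place beside Hsd3b5 also depends on the lengths used.

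Among the 10 genes, 1 was called lower and 0 higher in MTP against NC, where 2.78% of all genes tested were called lower and 2.61% higher. A call needed an adjusted p below 0.05 and more than 1.5-fold change. The groups did not overlap for 2 members, Igf1 and Hsd3b5, both lower in MTP, where 7.71% of all genes were lower without overlap and 6.96% higher. In MTP+CR against MTP, 1 member was called higher and 0 lower (5.94% and 6.51% of all genes), and 1 was higher without overlap and 0 lower (6.92% and 7.99%), in each case Hsd3b5. In MTP+CR against NC, 0 were called by edgeR (0.329% of all genes higher and 1.00% lower), and 0 had an unadjusted p under 0.05 (3337 of all 15197 genes). DESeq2 and limma-voom also called 0 members (1158 and 625 of all genes), and 0 were without overlap (7.37% higher and 8.15% lower). The median log2 fold change of the 10 was −0.90, 0.37 and −0.35 in the 3 comparisons, against 0.02, −0.03 and −0.02 over all genes tested. Fold changes lay below 0 for 9 of 10 members in MTP against NC, where Bcl6 was the exception, above 0 for 9 of 10 in MTP+CR against MTP, again except Bcl6, and below 0 for 10 of 10 in MTP+CR against NC. With scaling to total counts, which moved the median of all genes to 0.50 and −0.54 in the first 2 comparisons, Stat5a turned to 0.39 in the first, and Stat5a, Stat5b, Igfals, Socs2, Cish and Cux2 turned to between −0.44 and −0.04 in the second. The first 2 comparisons share the MTP livers, so a low MTP value lowers 1 fold change and raises the other.

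**Figure D2:**
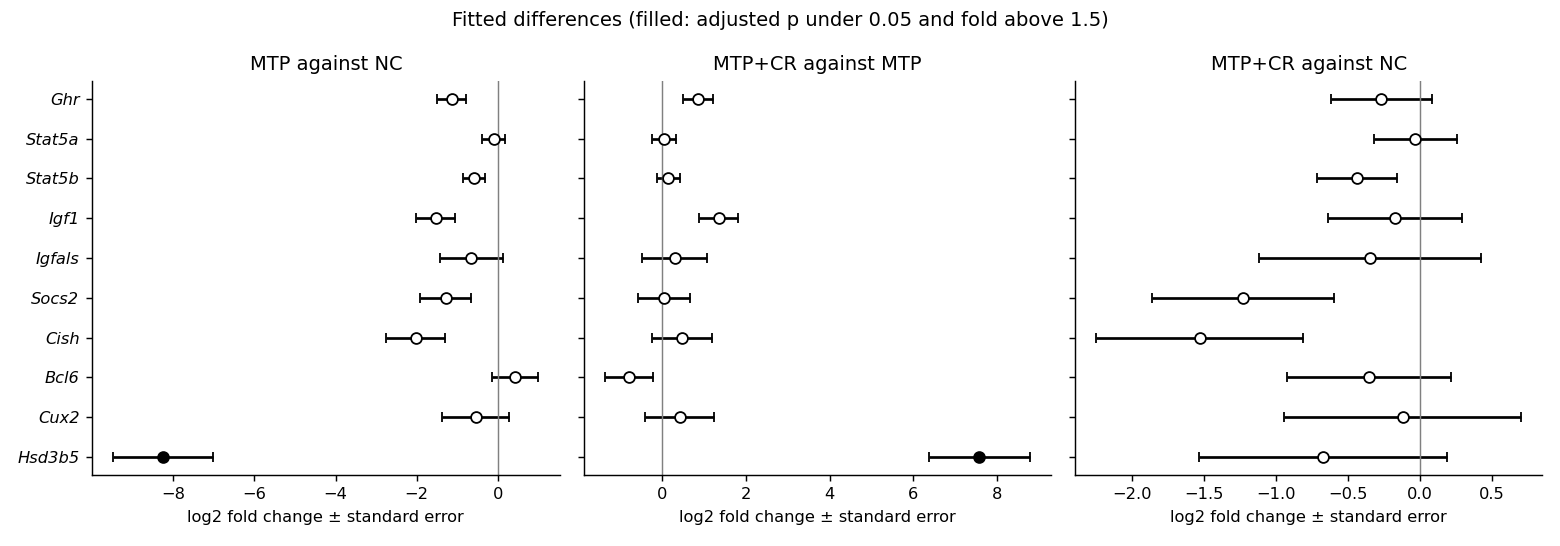
Log2 fold change (x axis) with its standard error for each of the 10 genes (y axis) in the 3 comparisons, from the edgeR fit over 12 libraries. Filled points mark called genes, and Hsd3b5 at −8.24 and 7.57 is the only filled point in the first 2 panels, with none in the third.

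Since hepatocyte markers also differed between groups, the members were set against the summed hepatocyte markers of the same library, a ratio chosen after the values had been seen. Igf1 was then 5.10 to 9.10 CPM per 1000 CPM of markers in NC livers, 2.32 to 8.44 in MTP livers and 3.85 to 10.0 in MTP+CR livers. Ghr was 4.04 to 4.71, 3.49 to 6.55 and 3.53 to 9.47 in the same order. The groups thus overlapped for both genes on this scale. Hsd3b5 was 0.226 to 1.63, 0 to 0.0165 and 0.0428 to 1.31, so the MTP livers remained below all others. Stat5b was 0.665 to 0.891 in NC livers and 1.13 to 1.48 in MTP livers, and Stat5a 0.130 to 0.153 and 0.266 to 0.418, so that on this scale both lay higher in every MTP liver than in any NC liver. Their MTP+CR livers, at 0.499 to 1.37 and 0.109 to 0.373, overlapped both other groups. In CPM neither gene was higher in MTP, and the ratio rises where the markers fall. Alb, the largest marker, had means of 91798 CPM in NC and 30345 in MTP (log2 fold change −1.60), whereas Apob was at −0.05. Socs2 was 0.1002 to 0.269, 0.0647 to 0.310 and 0.0232 to 0.165, with overlap of all groups.

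**Figure D3:**
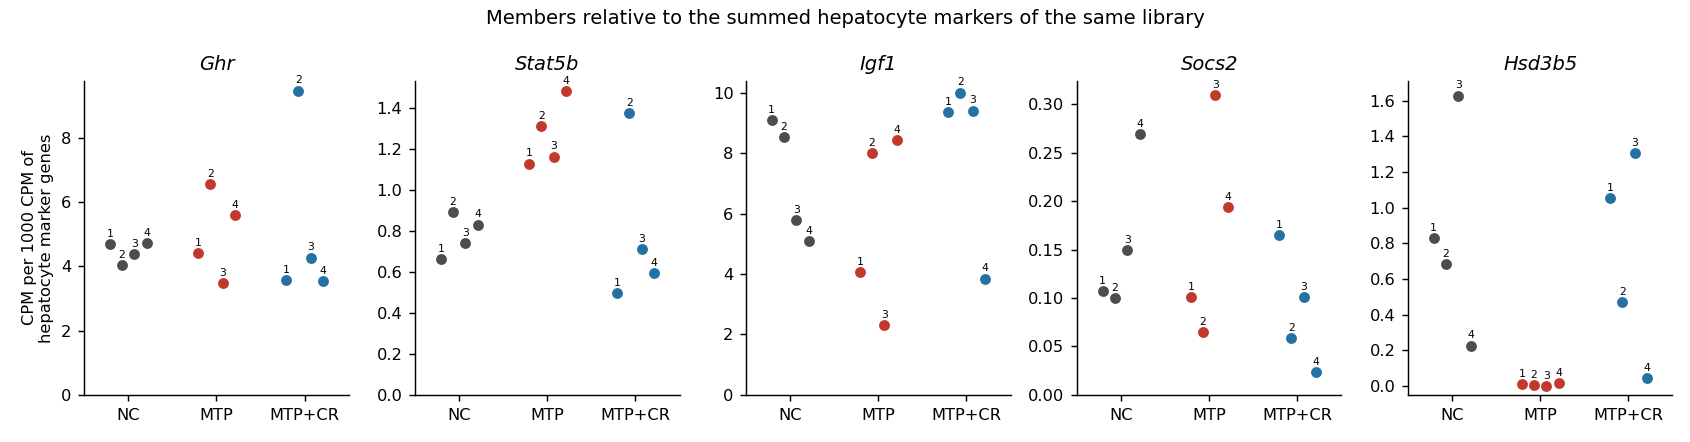
Level of Ghr, Stat5b, Igf1, Socs2 and Hsd3b5 in each liver as CPM per 1000 CPM of the summed hepatocyte markers of that library (y axis), by group (x axis), with replicate numbers beside the points. The MTP livers overlap the other groups for Ghr, Igf1 and Socs2, and stand at or below 0.0165 for Hsd3b5.

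The partners of the receptor were looked at through 13 genes of growth hormone receptor signalling, all tested. In MTP against NC, 1 was lower (2.78% of all genes tested) and 12 did not pass, with a median of 0.14. Higher and lower calls numbered 3 and 1 with total-count scaling (median 0.65), 3 and 2 with limma-voom, and 1 and 2 with DESeq2. Over all genes, 2610 were higher and 321 lower with total-count scaling, and limma-voom called 2662 and DESeq2 1764 in either direction. The gene called lower by edgeR was Prlr, the receptor for prolactin, which also signals through JAK2 and STAT5. It was at 181 to 306 CPM in NC livers and at 38.6 to 101 CPM in MTP livers, and fell by 1.65 on the log2 scale (standard error 0.36, adjusted p = 0.0218, edgeR quasi-likelihood), a call lost without NC 1, NC 3, MTP 1 or MTP 3 (−1.67 to −1.46). With crocin added to triptolide, 3 were lower (6.51% of all genes tested) and the median was −0.35. The lower calls numbered 6 with total-count scaling (median −0.81), 1 with the replicate block, and 0 without a filter or with only the 2 groups compared. With total-count scaling 4133 of all genes were lower. The 3 called by edgeR were the kinase gene Jak2 (−0.68, adjusted p = 0.0468) and the phosphatase genes Ptpn1 (−0.74, adjusted p = 0.0412) and Ptpn11 (−0.95, adjusted p = 0.032). Jak2 was 24.0 to 30.9 CPM in MTP livers and 12.6 to 22.0 in MTP+CR livers, and was not called by edgeR against NC at −0.87 (adjusted p = 0.0578), where 28.3 to 32.2 CPM were measured. Jak2 did pass against NC with DESeq2 (−0.86, adjusted p = 0.00428), with limma-voom (−0.77, adjusted p = 0.0321), without MTP 4 (−0.88, adjusted p = 0.0483) and without MTP+CR 3 (−1.04, adjusted p = 0.0478), and over the 22 alternatives its adjusted p ran from 0.00428 to 0.141. These 3 genes are expressed in many cell types. In the same MTP+CR livers the hepatocyte markers were higher and the endothelial markers lower than in the MTP livers. The part of cell composition in these 3 calls was not tested. Leaving out 1 library removed the call in 10 of 12 cases for Jak2 (all but MTP 4 and MTP+CR 3, −0.72 to −0.57), in 10 of 12 for Ptpn1 (all but NC 3 and MTP 4, −0.82 to −0.61) and in 5 of 12 for Ptpn11 (MTP 1, MTP 3 and MTP+CR 1, 3 and 4, −1.02 to −0.81).

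Of 12 further genes of IGF ligands, receptors and binding proteins, 10 were tested and 0 were called in MTP against NC by edgeR (3 at an unadjusted p under 0.05, 0 called by DESeq2 and 2 lower by limma-voom). Of all 15197 genes, 3462 had an unadjusted p under 0.05 in this comparison, and DESeq2 called 1764 and limma-voom 2662. The median of the list was −0.13, and 0.30 with total-count scaling. The smallest p-values were those of Igfbp3, the main carrier of IGF1 in blood (0.74, adjusted p = 0.146, edgeR quasi-likelihood), and Igf1r, the IGF1 receptor (0.62, adjusted p = 0.206). Against MTP, the MTP+CR livers had 2 of these genes higher and 1 lower (5.94% and 6.51% of all genes tested), with a median of −0.26. Igfbp2, a binding protein made by hepatocytes, was at 8.29, 87.6, 13.2 and 226 CPM in MTP livers 1 to 4 and at 1686, 328, 483 and 1397 CPM in MTP+CR livers, while NC livers held 156 to 247. Igfbp2 rose by 3.54 (standard error 0.89, adjusted p = 0.0299), and at 2.31 it did not pass against NC (adjusted p = 0.146), although all MTP+CR livers lay above all NC livers. Igfbp4, which also binds IGF1, rose by 2.01 (standard error 0.57, adjusted p = 0.0403), from 119 to 1123 CPM in MTP livers to 1204 to 2391 in MTP+CR livers. Igf1r had a log2 fold change of −1.498 and fell (standard error 0.29, adjusted p = 0.0137), from 3.68 to 6.98 CPM to a narrow 1.94 to 2.16 CPM. Leaving out MTP 1, MTP 2, MTP 3, MTP+CR 1 or MTP+CR 4 removed the Igfbp2 call (3.14 to 3.55). That of Igfbp4 was lost in 9 of 12 cases (1.68 to 2.01), those without NC 2, MTP 4 or MTP+CR 2 being the exceptions, whereas that of Igf1r held without each library (−1.65 to −1.39). Of the 22 alternatives, 1 lost the Igf1r call, that with the gene length trend removed (adjusted p = 0.0504, edgeR quasi-likelihood). The hepatocyte markers were higher and the endothelial markers lower in the same MTP+CR livers, and their part in these 3 calls was not tested.

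**Figure D4:**
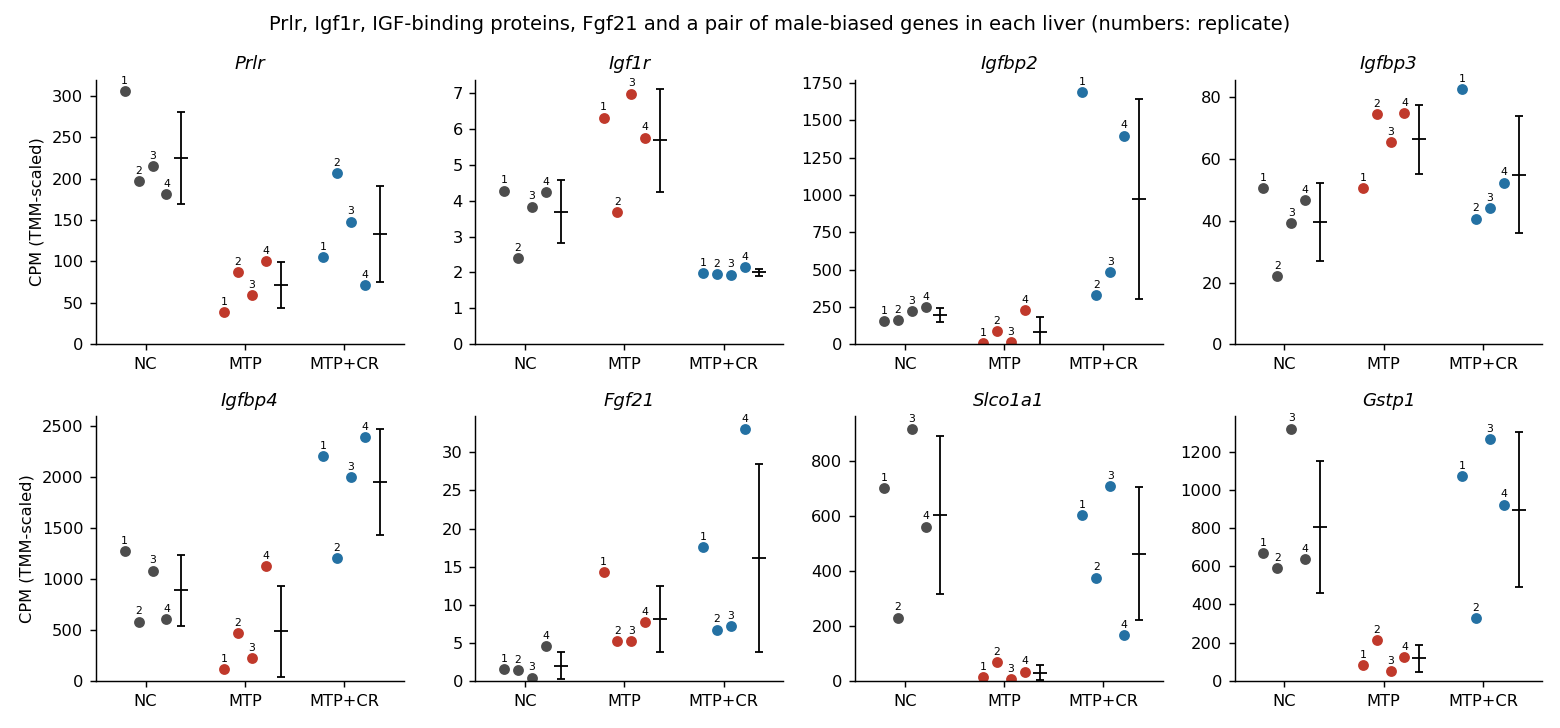
CPM (y axis) of Prlr, Igf1r, Igfbp2, Igfbp3, Igfbp4, Fgf21, Slco1a1 and Gstp1 in each liver by group (x axis), with replicate numbers beside the points and the mean with its SD (n = 4, cut at 0) in black. Igf1r lies at 1.94 to 2.16 CPM in all MTP+CR livers, and Slco1a1 and Gstp1 are low in all MTP livers.

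Male-biased liver genes that depend on pulsed growth hormone were counted apart from Hsd3b5. Of 16 listed, 15 were tested. In MTP against NC, 4 were lower, 0 higher and 11 did not pass, and 14 of 15 had fold changes below 0, with a median of −2.23. DESeq2 called 10 lower, limma-voom 7, and the fit without MTP 4 and MTP+CR 4 also 7. Over all 15197 genes, edgeR called 2.78% lower and 2.61% higher. The 3 other fits called 1764, 2662 and 2567 genes in either direction, in the same order. With crocin added, 7 were higher and 0 lower, or 3 higher with the replicate block, 15 of 15 had fold changes above 0, and the median was 1.70. There, edgeR called 5.94% of all genes higher and 6.51% lower. Between MTP+CR and NC, 0 were called by edgeR, DESeq2 or limma-voom, and 1 had an unadjusted p under 0.05. Of all 15197 genes, 3337 had such a p there, and edgeR called 0.329% higher and 1.00% lower. DESeq2 called 1158 and limma-voom 625 in either direction. The median of the list was 0.06, or −0.07 with the gene length trend removed. In the first 2 comparisons the median kept its sign under each scaling (−2.23 to −1.65 and 1.19 to 1.71). The hepatocyte markers moved in the same directions, and their part in these counts was not tested. The list was drawn up with results of these livers known, and its counts are no independent evidence.

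Slco1a1, an organic anion transporter, was at 701, 230, 915 and 561 CPM in NC livers, 12.8, 68.8, 5.61 and 33.5 in MTP livers and 601, 375, 708 and 165 in MTP+CR livers. It fell by 4.32 (standard error 0.75, adjusted p = 0.00892, edgeR quasi-likelihood) and rose by 3.94 with crocin added. Gstp1, a glutathione transferase, was at 590 to 1321 CPM in NC livers, 50.5 to 214 in MTP livers and 328 to 1265 in MTP+CR livers, with log2 fold changes of −2.77 (adjusted p = 0.0109) and 2.93 (adjusted p = 0.00934). The MTP livers of both genes lay below all others, and these calls held in all 22 alternatives.

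Cyp7b1, an oxysterol hydroxylase, fell by 3.75 (adjusted p = 0.0152, edgeR quasi-likelihood) and rose by 3.91 (adjusted p = 0.0138), and both calls were lost without MTP 3 alone (−3.60 and 3.75). Elovl3, a fatty acid elongase, fell by 4.89 (adjusted p = 0.0432) and rose by 4.96 (adjusted p = 0.032). Elovl3 in NC livers ranged from 7.98 to 493 CPM, and its calls were lost without any of 7 libraries in the first comparison (NC 1, NC 3, MTP 1 to 4 or MTP+CR 3, −5.05 to −3.11) and without any of 5 in the second (MTP 1 to 3, MTP+CR 1 or MTP+CR 3, 3.95 to 5.11). Leaving out 1 library moved the number of male-biased genes called between 2 (without MTP 3) and 6 (without MTP+CR 2) in the first comparison and between 2 (without MTP 3) and 10 (without MTP+CR 2) in the second. Calls over all genes moved as well, from 254 (without MTP 3) to 1953 (without MTP 4) in the first comparison. In the second they moved from 263 (without MTP 3) to 3971 (without MTP 4).

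Of 24 female-biased liver genes, 20 were tested. In MTP against NC, 1 was lower and 0 higher, with a median of −1.001, and in MTP+CR against MTP 2 were higher and 0 lower, with a median of 0.70. Over all genes tested, 2.78% were lower in the first of these comparisons and 5.94% higher in the second. The lower calls of the first comparison numbered 2 with DESeq2 and limma-voom and 3 without MTP 4 and MTP+CR 4, and the higher calls of the second 5 with DESeq2 and 1 with limma-voom. Over all genes and both directions, DESeq2 called 1764 and 3318 and limma-voom 2662 and 3228 in these 2 comparisons. Cyp2c69, a cytochrome P450, was at 7.62 to 14.8 CPM in NC livers, 1.41 to 3.45 in MTP livers and 7.37 to 13.8 in MTP+CR livers. It fell by 2.13 (standard error 0.37, adjusted p = 0.00865, edgeR quasi-likelihood) and rose by 2.09 (adjusted p = 0.00934), in all 22 alternatives. Cyp2a4, a steroid hydroxylase, rose by 3.61 with crocin added (adjusted p = 0.0428), a call lost without 7 of 12 libraries (NC 3, MTP 1 to 3, MTP+CR 1, 2 or 4, 3.10 to 3.77). Male-biased and female-biased genes thus had medians of the same sign in these 2 comparisons, also under each other scaling. The female-biased genes were divided in sign, with 13 of 20 below 0 in the first and 12 of 20 above 0 in the second. In the other direction, total-count scaling called 1 higher in the first (2610 of all genes) and 2 lower in the second (4133 of all genes). DESeq2 called 1 lower in the second.

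Transcription factors that act beside STAT5 in liver were counted as a list of 9, all tested. In MTP against NC, 0 were called by edgeR (3 at an unadjusted p under 0.05), DESeq2 and limma-voom each called 2 lower, and the median was −0.50. Of all 15197 genes, 3462 had such a p, and DESeq2 called 1764 and limma-voom 2662. Onecut1, which encodes the hepatocyte factor HNF6 (−2.14, adjusted p = 0.0684, edgeR quasi-likelihood) and Cebpa (−0.90, adjusted p = 0.0954) had the smallest p-values. With crocin added, Cebpa, a regulator of hepatocyte metabolism, rose by 1.52 (standard error 0.31, adjusted p = 0.0157), from 103 to 209 CPM to 288 to 465 CPM. Foxa3, a forkhead factor of liver, rose by 1.28 (standard error 0.27, adjusted p = 0.0185), from 32.0 to 68.1 CPM to 79.6 to 160 CPM, where NC livers held 51.1 to 56.3. Both calls were lost without MTP 1 or MTP 3 (1.40 to 1.42 for Cebpa and 1.13 to 1.17 for Foxa3). In MTP+CR against NC, Foxa3 at 1.11 (adjusted p = 0.0621, edgeR quasi-likelihood) and Onecut1 at −2.67 (adjusted p = 0.0643) did not pass. Foxa3 passed there with DESeq2 (adjusted p = 0.00605), limma-voom (adjusted p = 0.0367) and without MTP 4 (adjusted p = 0.0388), and Onecut1 with DESeq2 (adjusted p = 0.00119), the replicate block (adjusted p = 0.0476) and without NC 2 (adjusted p = 0.0387).

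Hepatic resistance to growth hormone in fasting is known to involve FGF21 and SIRT1, and 6 genes of this kind were tested. In MTP against NC, 0 were called by edgeR (1 at an unadjusted p under 0.05), DESeq2 called 1 higher, limma-voom 1 higher and 1 lower, and the median was 0.33. Of all 15197 genes, 3462 had such a p, and DESeq2 called 1764 and limma-voom 2662. Fgf21, a hormone that the liver releases in fasting, was at 1.60, 1.40, 0.426 and 4.58 CPM in NC livers, 14.3, 5.24, 5.18 and 7.75 in MTP livers and 17.6, 6.72, 7.24 and 33.1 in MTP+CR livers. The livers of both treated groups lay above all NC livers. Its log2 fold change was 2.02 for MTP against NC (adjusted p = 0.0863, edgeR quasi-likelihood). That difference passed with DESeq2 (adjusted p = 0.0177), limma-voom (adjusted p = 0.0243), total-count scaling (adjusted p = 0.0228), the replicate block (adjusted p = 0.0273) and without NC 4 (adjusted p = 0.0432). Fgf21 rose by 3.01 for MTP+CR against NC (standard error 0.67, adjusted p = 0.0468, edgeR quasi-likelihood), the only gene of these lists called by edgeR in that comparison. The call against NC was lost without any of 8 libraries (NC 1, 2 or 3, MTP 2 or 3, MTP+CR 1, 3 or 4, 2.39 to 3.25). Sirt1, a deacetylase, fell by 1.33 in MTP+CR against MTP (adjusted p = 0.0362), which did not pass when MTP 1, 2 or 3 or MTP+CR 1 or 4 was left out (−1.35 to −1.06).

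**Figure D5:**
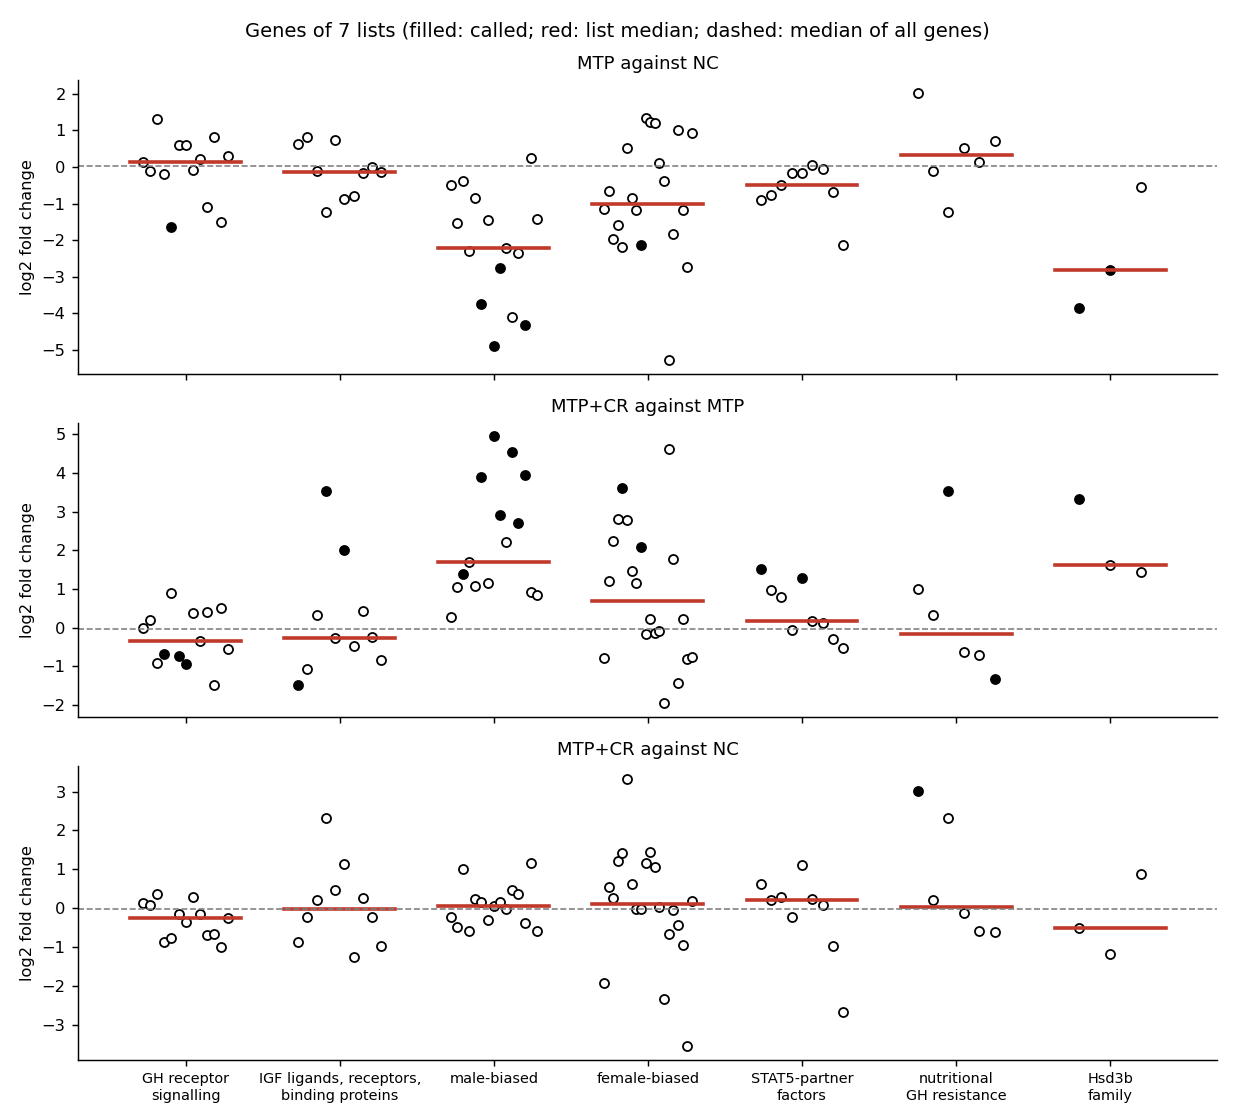
Log2 fold change (y axis) of each tested gene of 7 lists (x axis) in the 3 comparisons, with called genes filled, list medians in red and the median of all genes dashed. The male-biased genes have medians of −2.23, 1.70 and 0.06 from top to bottom.

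The genes most like 3 of the members across the 12 livers were found by Pearson's r of log2 CPM, leaving out predicted genes and pseudogenes. For Igf1 these were Arhgap44 (0.97), Hectd3 (0.97) and Synj2bp (0.96). For Socs2 they were Zcchc3 (0.90), Ppp1r16b (0.88) and Hmbox1 (0.86), and for Hsd3b5 Cspg5, Dclk3 and Slc23a1 (0.95 each). Slc23a1, a vitamin C transporter, was at 54.9 to 80.7 CPM in NC livers, 9.98 to 16.7 in MTP livers and 22.8 to 46.6 in MTP+CR livers. For Cspg5, Dclk3 and Slc23a1, r with group means removed was 0.94, 0.67 and 0.84. Cspg5 held 9 to 27 counts in NC livers and 0 to 5 in MTP livers, near the lower limit of the data. These livers share groups and library composition, so r is a description over 12 points and carries no p.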

How the data were processed

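Liver mRNA of 12 mice was analysed, 4 per group with 1 library each. The authors used Hisat2 for mapping of trimmed reads and Stringtie for fragment counts of each gene. The deposited table holds these counts and FPKM, the counts divided by gene length and library total. The labels name Bowtie (version 0.12.2) and mm10, and the annotation release and the strand setting of the counting are not given in the sources used here. FPKM served only to rank levels between genes.

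The count analysis used edgeR 4.0.16 under R 4.3.3, with filterByExpr (count minimum 10, total count minimum 15), TMM factors and 1 quasi-likelihood fit over the 3 groups, with Benjamini-Hochberg adjustment over 15197 genes. A call needed an adjusted p under 0.05 and a fold above 1.5. The procedure was tested on simulated data. The labels do not give litters or cages, so any part of these in the differences is not known. The p-values set the group differences against the spread between mice, estimated jointly for the 3 groups. Members, lists and tests were chosen with earlier results of these data known. Named genes were all members and, per list and comparison, up to 4 called genes with the smallest adjusted p per direction, or the 2 smallest p where none was called. Alternatives were DESeq2 1.42.0, limma-voom with quality weights (limma 3.58.1), other scalings and filters, other fold thresholds, removal of gene length trends (lowess span 0.3), only the 2 groups compared, the replicate number as a block, and each library left out. Positions are those of GENCODE vM21 and promoter sequences those of RefSeq (GRCm38.p6), which has no window for Socs2 in the table used. Windows without the motif were searched but are not shown. The RefSeq start of Hsd3b5 (98645534) lies outside its GENCODE positions, and the RefSeq starts of Cish and Igfals also differ from their GENCODE starts.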

Additional observations from a re-analysis of the deposited data

Results flagged for a closer look

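Of 30 sets of 4 livers (10 genes in 3 groups), 2 held a liver far from the other 3, and chance gives such a liver in about 1 in 20 sets. Igfals in MTP+CR 4 was at 81.03 CPM, where the other MTP+CR livers were at 13.43 to 20.49 CPM. Bcl6 in MTP 2 was at 55.76 CPM, where the other MTP livers were at 19.79 to 24.86 CPM. The cause of either value was not tested.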

How the results depend on the processing

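The Hsd3b5 calls held under all 22 alternatives. Among 657 alternative values of the 10 members, 604 kept their direction and side of the threshold, 13 passed it newly, 0 lost it and 40 changed sign. Of 946 values of named list genes, 798 were unchanged in this sense, 123 lost the call, 25 gained it and 0 changed sign. Both totals include genes without a call in the main fit, which had none to lose. Among the members only Hsd3b5 was called, so the 0 lost rests on that gene. Calls of named list genes held in 8 (Jak2, MTP+CR against MTP) to 22 of the 22 alternatives. These genes were named for a call or a small p, so their 0 sign changes are no independent evidence. The causes of the changes were not tested. Depth (15509226 to 18430566 counts) limits Cux2 and, in MTP livers, Hsd3b5.

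The members called in MTP against NC were 4 with DESeq2, 3 with limma-voom, 3 without both MTP 4 and MTP+CR 4, and 1 to 2 with 1 library left out (2 without MTP 4). For MTP+CR against MTP they were 2, 3, 2 and 1 to 2 (2 without MTP 4). All genes called numbered 820 in MTP against NC, and 1764 with DESeq2, 2931 with total-count scaling (2610 higher, 321 lower, against 397 and 423 with TMM), 2662 with limma-voom, 2567 without MTP 4 and MTP+CR 4, and 254 (without MTP 3) to 1953 (without MTP 4) with 1 library left out. For MTP+CR against MTP the number was 1892, and 3318 with DESeq2, 4546 with total-count scaling (413 higher, 4133 lower, against 903 and 989), 1143 without a filter (median of all genes −0.14), 3228 with limma-voom, 333 with only the 2 groups compared, 3345 without MTP 4 and MTP+CR 4, and 263 (without MTP 3) to 3971 (without MTP 4) with 1 library left out. For MTP+CR against NC it was 202, and 1158 with DESeq2, 116 without a filter, 625 with limma-voom, 98 with only the 2 groups, 133 without MTP 4 and MTP+CR 4, and 63 (without NC 4) to 389 (without MTP+CR 2) with 1 library left out.

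Same-numbered livers did not all deviate together (correlations −0.20 to 0.23 over 12 pairs that share livers, 2 of them above 0.1, and the best match its own number in 6 of 12 pairs), so the numbers were not taken to pair them. With the number as a replicate block, 539 genes were called in MTP against NC and 66 in MTP+CR against NC, and Bcl6 turned to 0.16 in the latter.

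With total-count scaling, Stat5a turned to 0.39 in MTP against NC, and in MTP+CR against MTP Stat5a turned to −0.41, Stat5b to −0.28, Igfals to −0.11, Socs2 to −0.44, Cish to −0.038 and Cux2 to −0.0498. With limma-voom, Stat5a turned to −0.13 in MTP+CR against MTP and Bcl6 to 0.34 in MTP+CR against NC. In MTP+CR against NC, removing length trends turned Stat5a to 0.15, Igf1 to 0.081 and Cux2 to 0.11, and leaving out MTP 4 and MTP+CR 4 turned them to 0.092, 0.046 and 0.25.

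With 1 library left out, the members that changed sign ranged as follows. In MTP against NC, Stat5a ranged from −0.22 to 0.052, Igfals from −1.36 to 0.018 and Bcl6 from −0.041 to 1.39. For MTP+CR against MTP, Stat5a ranged from −0.26 to 0.23, Stat5b from −0.068 to 0.33, Igfals from −0.67 to 1.00, Socs2 from −0.58 to 0.49, Cish from −0.0077 to 0.93 and Cux2 from −0.80 to 0.98. For MTP+CR against NC, Stat5a ranged from −0.36 to 0.13, Igf1 from −0.33 to 0.049, Igfals from −1.33 to 0.32, Bcl6 from −0.67 to 0.60, Cux2 from −1.35 to 0.27 and Hsd3b5 from −1.15 to 0.13.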

Other observations

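Xist, the RNA of the inactive X chromosome, held 152, 72, 125 and 6 counts in MTP livers 1 to 4, 0 to 5 counts in NC livers and 0 to 8 in MTP+CR livers, all from mice described as male. Ddx3y, a Y-linked gene, held 635 to 1687 counts in all 12 livers. The part of this in the sex-biased genes was not tested.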
